A study of Homo sapiens with 6 samples.

Results

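A set of 8 coding genes known for small proteins and, in many cells, abundant mRNAs was examined as a comparison for the ribosomal protein mRNAs that LARP1 is known to bind. They are TMSB10 (ENSG00000034510), TMSB4X (ENSG00000205542), PFN1 (ENSG00000108518), CFL1 (ENSG00000172757), S100A6 (ENSG00000197956), S100A10 (ENSG00000197747), S100A11 (ENSG00000163191) and PPIA (ENSG00000196262). They were taken by Ensembl ID from the 60554 IDs in each count table, and each matched 1 row in all 6 libraries. RNA immunoprecipitation followed by sequencing was performed on the free 40S part of sucrose gradients from HCT116, a line of human colorectal carcinoma cells. The LARP1 IP (n = 2) is what an antibody to LARP1 recovered, the IgG IP (n = 2) is the background that IgG of normal rabbit serum recovered, and Input (n = 2) is RNA of the fraction taken with no antibody. All 6 libraries came from the same untreated line and the same fraction, which the sample descriptions call a 40S monosome fraction. The labels call the replicates biological but do not name separate cultures, and a p-value here reflects only how far these libraries spread.

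LARP1 is an RNA-binding protein that recognises mRNAs beginning with a cap, a C and an unbroken run of pyrimidines, the terminal oligopyrimidine (TOP) motif. This class includes the mRNAs of the ribosomal proteins, whose translation follows mTORC1 signalling, and LARP1 is known to hold such mRNAs when that signalling is low. The 8 genes here code for proteins outside the translation machinery: thymosins, profilin and cofilin control the pool of actin monomers and filaments, S100 proteins bind calcium or partner proteins, and PPIA is a peptidyl-prolyl isomerase.

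The bases at the annotated start of each gene are shown because the TOP motif is defined by them. Each sequence covers 15 bases before and 15 bases from the start that RefSeq annotates (GRCh38.p14), so that the start is base 16. It is printed on the sense strand, which reads as the mRNA does, and capitals mark its longest unbroken run of C and T. For 2 ribosomal protein genes, the first small subunit and the first large subunit gene of a fixed list that have an entry, the same window is given.
TMSB10: gggcgccgCTCTTTTgtttcttgctgcagc
TMSB4X: cgcaCCCCgcccgacaactcggtggtggcc
PFN1: tgcgagggCTgctgcacagcgagcggagcc
CFL1: gccgggagaggccgcgttcagtcgggTCCC
S100A6: actgcgacacagcccaTCCCCTCgaccgct
S100A10: gcgccgCCTCCCTCTacccacccgccgcac
S100A11: ggaagggcgtgggttgaggagaggCTCCag
PPIA: ggccaggctcgtgccgTTTTgcagacgcca
RPS3: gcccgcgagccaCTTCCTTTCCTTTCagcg
RPL3: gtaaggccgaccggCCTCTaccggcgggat

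The windows lie at chr2:84905641-84905670 (TMSB10, plus strand), chrX:12975095-12975124 (TMSB4X, plus), chr17:4948516-4948545 (PFN1, minus), chr11:65858166-65858195 (CFL1, minus), chr1:153535977-153536006 (S100A6, minus), chr1:151993845-151993874 (S100A10, minus), chr1:152036990-152037019 (S100A11, minus) and chr7:44796666-44796695 (PPIA, plus). Those of the ribosomal protein genes lie at chr11:75399503-75399532 (RPS3, plus) and chr22:39319609-39319638 (RPL3, minus). Each window spans the upstream flank and the first bases of the annotated first exon. The first annotated base was a purine in 8 of the 8 genes, in 13 of 63 ribosomal protein genes with an entry (of 80 symbols looked up) and in 78.1% of all 35116 annotated starts. A C at the start followed by 4 or more C or T stood in 0 of the 8 genes, in 43 of 63 ribosomal protein genes and in 4.1% of all starts. RPS3 has it, and RPL3, whose run is broken 4 bases after the start, does not. A run of 7 or more C and T anywhere in the 30 bases stood in 3 of the 8 genes, in 52 of 63 ribosomal protein genes and in 20.2% of all starts. The 3 were TMSB10, where the run of 7 ends at the base before the annotated start, S100A10, where the run of 9 also ends there, and S100A6, where the run of 7 begins 1 base after it. The motif was searched on the sense strand only. These are annotated starts, and where transcription began in these HCT116 cells was not measured here.

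The libraries held between 4135463 and 8069554 counts. The 2 genes with the most counts took 21.3% to 88.6% of a library, so that all other genes shared at least 3256012 counts in each LARP1 IP library, at least 2144182 in each IgG IP library and at least 752862 in each Input library. Levels below are CPM (counts scaled to library size) scaled by TMM, a scaling that sets the bulk of genes equal between libraries, so a fold change compares a gene with that bulk. Of 60554 IDs, 10788 passed the filter on low counts, all 8 genes among them. By mean Input CPM, which is not corrected for mRNA length, TMSB10 ranked 88, PPIA 160, S100A6 202, CFL1 300 and PFN1 302 of the 10788 genes. TMSB4X ranked 902, S100A10 1941 and S100A11 3119, with 28 and 29 counts for S100A11 in Input, so these 3 were not among the most counted mRNAs of this fraction. Lengths of the mRNAs were not used here, so these ranks say how often a gene was counted and not how much mRNA it had.

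**Figure D1:**
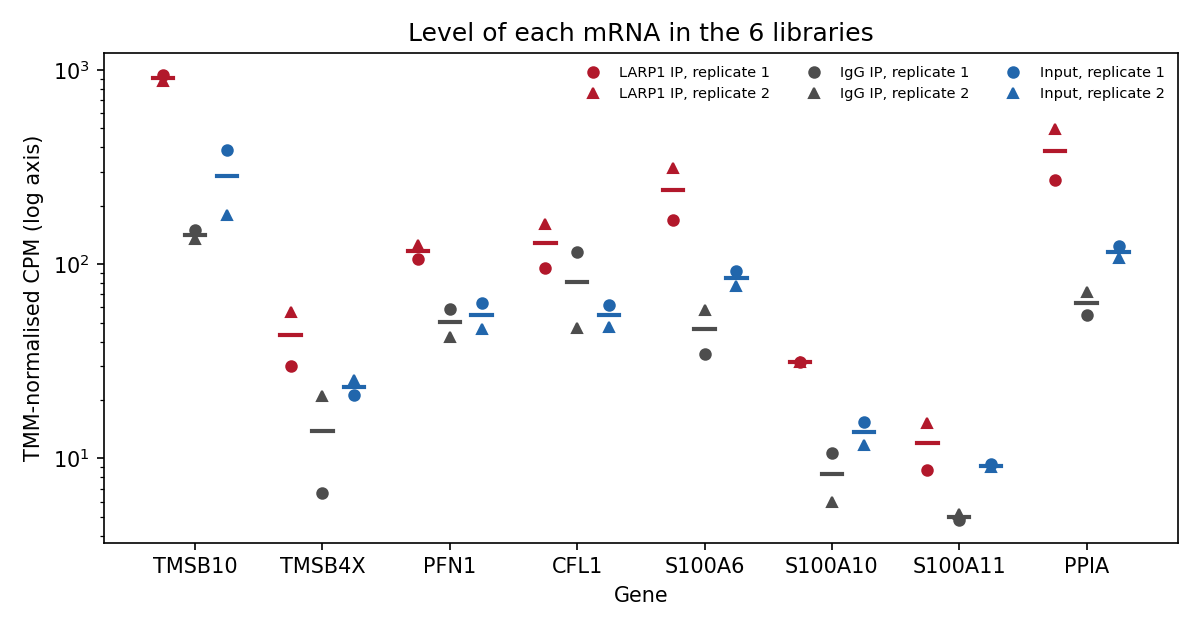
TMM-normalised CPM (log axis) of the 8 genes in the 6 libraries. Circles are replicate 1, triangles replicate 2 and bars group means, with the LARP1 IP at the left, the IgG IP in the middle and Input at the right of each gene. For TMSB10 the LARP1 IP libraries stand at 939.9 and 882 CPM, above all control libraries, while for CFL1 an IgG IP library at 115 CPM lies between the LARP1 IP libraries.

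Among the 4 actin-binding genes, only TMSB10 passed the edgeR threshold against both controls in the main fit, which is no test of a difference between the genes. Over Input, PFN1 (log2 fold change 1.09 ± 0.40, SE) and CFL1 (1.24 ± 0.48) also had positive values without passing. The call of TMSB10 over Input was lost in 6 of the 20 alternative settings. TMSB10, the thymosin beta-10 that sequesters actin monomers, stood at 939.9 and 882 CPM in LARP1 IP libraries, 150.2 and 134 CPM in IgG IP libraries, and 387 and 179 CPM in Input. Both LARP1 IP libraries lay above every control library, and the Input libraries differed from each other more than the libraries of either immunoprecipitate. The means were 911 ± 40.9, 142 ± 11.3 and 283 ± 147 CPM in the same order (SD, n = 2 each). The log2 fold change was 2.68 ± 0.45 over IgG (SE; edgeR adjusted p = 0.00216) and 1.69 ± 0.44 over Input (edgeR adjusted p = 0.0376). Its pyrimidine run, CTCTTTT, ends before the annotated start, and whether it bears on recovery was not tested.

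TMSB4X, the thymosin beta-4 that has the same monomer-sequestering role, stood at 29.8 and 56.7 CPM in LARP1 IP libraries (284 and 305 counts), 6.65 and 21.0 CPM in IgG IP libraries (72 and 212 counts), and 21.1 and 25.5 CPM in Input (63 and 82 counts). Both LARP1 IP libraries were above all 4 control libraries, but the IgG IP libraries differed from each other by a factor of 3.16. The log2 fold change was 1.64 ± 0.53 over IgG (SE; edgeR adjusted p = 0.0647) and 0.89 ± 0.53 over Input (edgeR adjusted p = 0.366), so neither passed with edgeR. DESeq2 called it over IgG (log2 fold change 1.63, adjusted p = 0.0336), and without IgG IP replicate 2 the log2 fold change was 2.69 (edgeR adjusted p = 0.00368). Without LARP1 IP replicate 1 it was 2.04 (edgeR adjusted p = 0.0177). It was 1.04 without IgG IP replicate 1 (edgeR adjusted p = 0.367) and 1.11 without LARP1 IP replicate 2 (edgeR adjusted p = 0.281).

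PFN1, profilin 1, which loads actin monomers for filament growth, stood at 107 and 126 CPM in LARP1 IP libraries, 58.7 and 42.2 CPM in IgG IP libraries, and 63.1 and 46.3 CPM in Input. The LARP1 IP libraries were above all control libraries, and the IgG IP and Input ranges overlapped. The log2 fold change was 1.21 ± 0.40 over IgG (SE; edgeR adjusted p = 0.0692) and 1.09 ± 0.40 over Input (edgeR adjusted p = 0.133), and neither passed with edgeR. DESeq2 called it over IgG (adjusted p = 0.0339) and not over Input (adjusted p = 0.109).

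CFL1, cofilin 1, which severs actin filaments, stood at 96.0 and 162 CPM in LARP1 IP libraries, 115 and 46.9 CPM in IgG IP libraries, and 61.7 and 47.8 CPM in Input. It was the only one of the 8 genes whose LARP1 IP and IgG IP libraries overlapped, since IgG IP replicate 1 (1250 counts) was above LARP1 IP replicate 1 (915 counts) after scaling. The log2 fold change was 0.67 ± 0.47 over IgG (SE; edgeR adjusted p = 0.414) and 1.24 ± 0.48 over Input (edgeR adjusted p = 0.160). Without IgG IP replicate 1 the log2 fold change over IgG was 1.46 (edgeR adjusted p = 0.139; DESeq2 1.45, adjusted p = 0.0542), whereas it was 0.15 without IgG IP replicate 2 and 0.24 without LARP1 IP replicate 2 (edgeR adjusted p = 0.900 and 0.854). CFL1 passed the threshold over IgG in none of the 20 alternatives, with adjusted p from 0.0542 to 0.947.

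The S100 genes code for small calcium-binding proteins of the EF-hand family. S100A6, calcyclin, stood at 169 and 314 CPM in LARP1 IP libraries, 34.6 and 58.0 CPM in IgG IP libraries, and 92.6 and 77.6 CPM in Input. All control libraries were below both LARP1 IP libraries, which differed from each other by a factor of 1.86. S100A6 rose over IgG, with a log2 fold change of 2.38 ± 0.46 (SE; edgeR adjusted p = 0.00491). Over Input the log2 fold change was 1.51 ± 0.44 and missed the threshold (edgeR adjusted p = 0.0639), whereas DESeq2 called it (adjusted p = 0.0211), as did edgeR on the 4 libraries compared (adjusted p = 0.0323). Without LARP1 IP replicate 1 or either IgG IP library edgeR called it over Input too, with adjusted p from 0.0154 to 0.0300. It did not without LARP1 IP replicate 2 (log2 fold change 1.01), Input replicate 1 (1.64) or Input replicate 2 (1.39). Without either Input library edgeR called no gene at all over Input, so those fits cannot tell S100A6 from other genes.

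S100A10, known as p11, the partner of annexin A2 that no longer binds calcium, stood at 31.3 and 31.3 CPM in LARP1 IP libraries (298 and 168 counts), 10.7 and 5.95 CPM in IgG IP libraries (116 and 60 counts), and 15.4 and 11.8 CPM in Input (46 and 38 counts). The LARP1 IP was above all control libraries, and its 2 libraries were alike after scaling. The gene rose over IgG (log2 fold change 1.90 ± 0.43, SE; edgeR adjusted p = 0.0119), but not past the threshold without IgG IP replicate 2 (log2 fold change 1.56, edgeR adjusted p = 0.0954). Over Input the log2 fold change was 1.20 ± 0.43 (edgeR adjusted p = 0.128).

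S100A11, calgizzarin, stood at 8.71 and 15.3 CPM in LARP1 IP libraries (83 and 82 counts), 4.80 and 5.16 CPM in IgG IP libraries (52 and 52 counts), and 9.39 and 9.002 CPM in Input (28 and 29 counts). LARP1 IP replicate 1 lay below both Input libraries, so the LARP1 IP and Input overlapped. The log2 fold change was 1.25 ± 0.43 over IgG (SE; edgeR adjusted p = 0.0834) and 0.37 ± 0.44 over Input (edgeR adjusted p = 0.687). Without LARP1 IP replicate 2 the value over Input was -0.062, and without LARP1 IP replicate 1 edgeR called the gene over IgG (log2 fold change 1.61, adjusted p = 0.0372) and DESeq2 did not (adjusted p = 0.111). Without LARP1 IP replicate 2 the value over IgG was 0.81 (edgeR adjusted p = 0.372).

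PPIA, cyclophilin A, the isomerase that ciclosporin binds, stood at 270.0 and 496 CPM in LARP1 IP libraries, 54.7 and 72.0 CPM in IgG IP libraries, and 124 and 107 CPM in Input. Both LARP1 IP libraries were above every control library, and the control groups did not overlap each other. The means were 383 ± 159.9, 63.4 ± 12.3 and 116 ± 11.8 CPM in the same order (SD, n = 2 each). PPIA rose by a log2 fold change of 2.60 ± 0.44 over IgG (SE; edgeR adjusted p = 0.00216) and of 1.73 ± 0.43 over Input (edgeR adjusted p = 0.0291). Its call over Input was lost in 6 of the 20 alternative settings, as many as for TMSB10. RefSeq lists 87 pseudogenes named after PPIA, against 10 each for PFN1 and S100A11, 8 each for TMSB4X and CFL1, 2 for TMSB10, and 0 for S100A6 and S100A10. How reads that fit both a gene and such a copy were counted is not given in the sources used here, so counts of the 6 genes that have copies may be too low or too high.

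**Figure D2:**
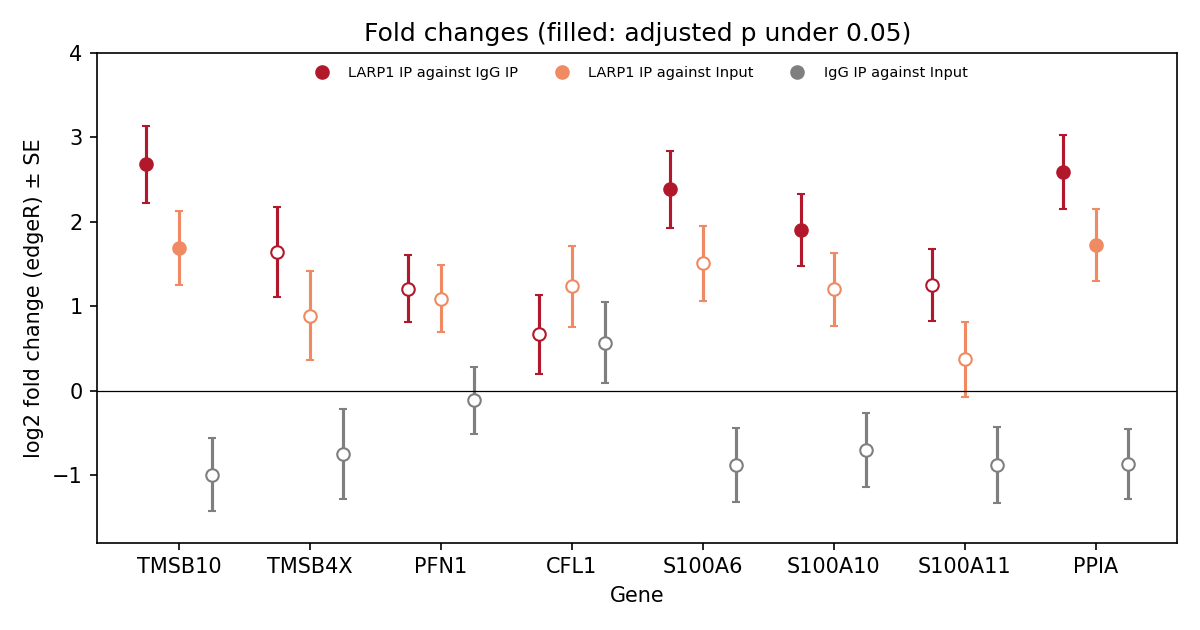
edgeR log2 fold changes of the 8 genes (points) with standard errors (bars) in the 3 comparisons, LARP1 IP against IgG IP at the left, LARP1 IP against Input in the middle and IgG IP against Input at the right of each gene. Filled points passed an adjusted p of 0.05: 4 genes over IgG, 2 over Input and 0 in the IgG IP.

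Against the IgG IP, the comparison that asks what the LARP1 antibody recovers above background, 4 of the 8 genes were higher and 0 were lower, where 8.54% of all 10788 genes tested were higher and 2.29% lower. The 4 were TMSB10, S100A6, S100A10 and PPIA. Among the 3123 tested genes whose mean Input CPM was at least that of S100A11, 13.6% were higher. That set reaches down to S100A11 at rank 3119, while TMSB10, PPIA and S100A6 ranked 88, 160 and 202 and S100A10 ranked 1941. Its share is therefore not the share at the level of the genes called, which was not computed. The 8 log2 fold changes ran from 0.67 (CFL1) to 2.68 (TMSB10) with a median of 1.77, against a median of -0.06 over all genes tested and 0.0012 over those 3123. At an unadjusted p of 0.05, 7 of the 8 genes passed, against 25.1% of all genes. In 7 of the 8, both LARP1 IP libraries lay above both IgG IP libraries, as in 27.3% of all genes.

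Against Input, which asks how the recovered RNA differs from the RNA of the fraction, 2 of the 8 genes were higher (TMSB10 and PPIA) and 0 were lower, where 4.63% of all genes were higher and 1.52% lower. Of the 3123 genes at or above the Input level of S100A11, which are not matched to the level of TMSB10 or PPIA, 8.71% were higher. The log2 fold changes ran from 0.37 (S100A11) to 1.73 (PPIA) with a median of 1.22, against 0.03 over all genes. In 7 of the 8 genes both LARP1 IP libraries lay above both Input libraries, as in 28.8% of all genes, with S100A11 as the exception. With upper-quartile factors TMSB10 missed the threshold over Input (log2 fold change 1.55, edgeR adjusted p = 0.0570). Without Input replicate 1 or replicate 2, edgeR called 0 of all genes higher than Input (at an unadjusted p of 0.05, 5 of the 8 and 16.2% of all genes passed without replicate 1, and 3 of the 8 and 10.2% without replicate 2), and the log2 fold change of TMSB10 was 2.37 and 1.24. The DESeq2 log2 fold changes without Input replicate 1 were 2.33 for TMSB10 and 1.81 for PPIA. Without Input replicate 2 they were 1.17 and 1.56, and DESeq2 then kept neither call. Without LARP1 IP replicate 2 the edgeR log2 fold changes were 1.75 for TMSB10 and 1.24 for PPIA, and edgeR kept neither call.

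TMSB10 and PPIA passed against both controls, as 4.37% of all genes tested did (471 genes, and 8.42% of the 3123). The comparisons share the LARP1 IP libraries. Among those 471 genes the median log2 fold change was 2.84 over IgG and 2.53 over Input. A larger value over IgG than that of TMSB10 was found for 268 of them (56.9%), and than that of PPIA for 287 (60.9%). Over Input 439 of the 471 (93.2%) exceeded TMSB10 and 429 (91.1%) exceeded PPIA, so both stood near the low end of that set over Input. In 6 of the 8 genes, CFL1 and S100A11 being the others, both LARP1 IP libraries were above all 4 control libraries, as in 20.6% of all genes.

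**Figure D3:**
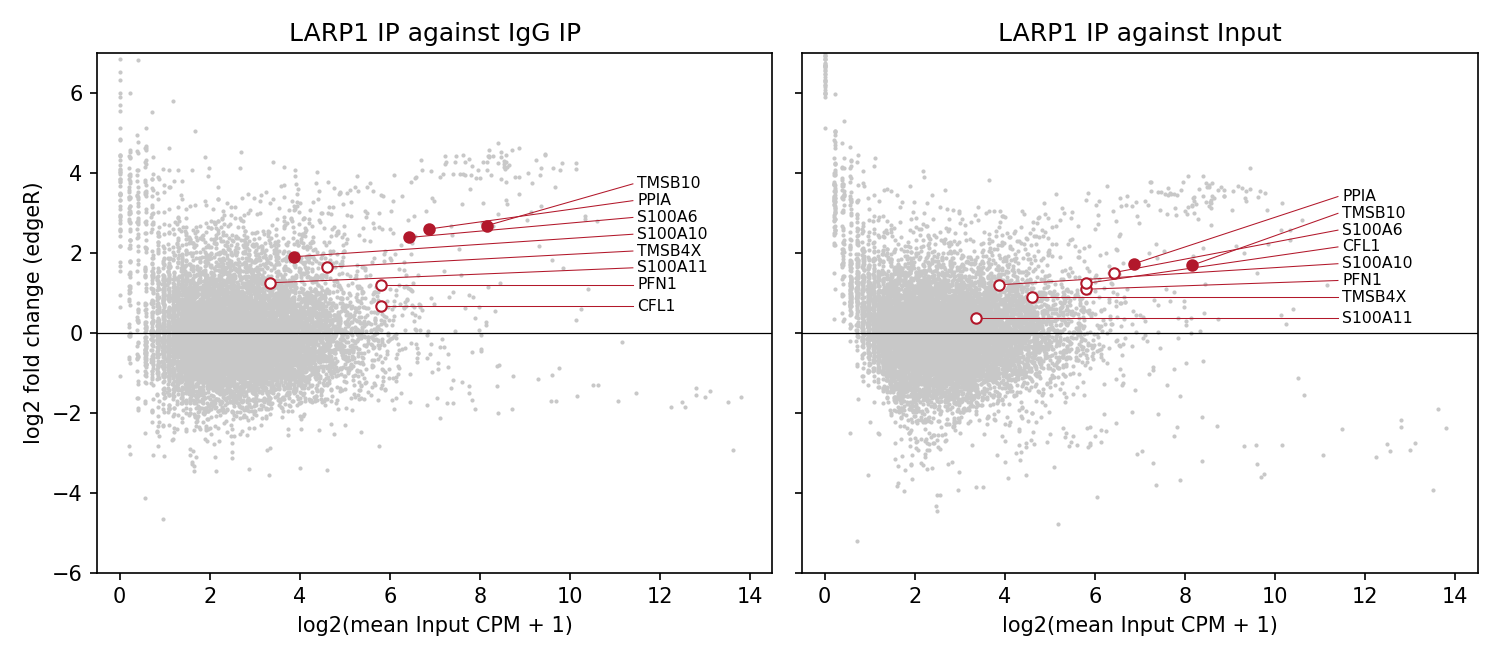
edgeR log2 fold change in the LARP1 IP over the IgG IP (left) and over Input (right) against log2(mean Input CPM + 1) for all 10788 genes tested (grey) and the 8 named genes (red, filled where the adjusted p is under 0.05). The 8 genes sit between 0.67 and 2.68 on the left and between 0.37 and 1.73 on the right, below a group of abundant genes with larger fold changes, and 2 genes to the right of the axis and at most 18 above or 1 below it are not drawn.

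The control serum itself was set against Input. By edgeR 0 of the 8 genes passed, 0% of the 10788 genes passed in either direction, and at an unadjusted p of 0.05 the count was 1 of the 8 (TMSB10) and 6.72% of all genes, while DESeq2 called 0 of the 8 and 38 of all genes, giving no adjusted p to 8366 genes, S100A11 among them. The log2 fold changes of TMSB10, TMSB4X, the 3 S100 genes and PPIA lay between -0.99 and -0.70. In these 6 genes both IgG IP libraries were below both Input libraries, as in 19.3% of all genes. PFN1 stood at -0.12 ± 0.39 and CFL1 at 0.57 ± 0.48 (SE; edgeR adjusted p = 0.973 and 0.866). Scaling by total counts gave a median of all genes of 1.51 on the log2 scale in this comparison, and then all 8 values were above 0 and PFN1 and CFL1 passed, as did 53.8% of all genes, while relative to that median the values of the 6 genes remained below 0.

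Ratios of counts within a library do not depend on the scaling. PPIA over CFL1 was 2.81 and 3.06 in LARP1 IP libraries, 0.474 and 1.53 in IgG IP libraries, and 2.01 and 2.25 in Input. The 3 groups did not overlap for this ratio, and the LARP1 IP was highest. S100A6 over S100A11 was 19.5 and 20.6 in LARP1 IP libraries, 7.19 and 11.3 in IgG IP libraries, and 9.86 and 8.62 in Input, again with the LARP1 IP above all control libraries. TMSB10 over TMSB4X was 31.5 and 15.5 in LARP1 IP libraries, 22.6 and 6.38 in IgG IP libraries, and 18.3 and 7.04 in Input, and the groups overlapped. With 2 libraries a side, 0.333 is the smallest two-sided p of an exact permutation test, and it was the value for PPIA over CFL1 and for S100A6 over S100A11 in the LARP1 IP against either control (0.857 after Benjamini-Hochberg adjustment over 18 comparisons of 6 ratios). PPIA over S100A6 was 1.59 and 1.58 in LARP1 IP libraries, 1.58 and 1.24 in IgG IP libraries, and 1.34 and 1.38 in Input, a range of 1.24 to 1.59 over the 6 libraries. For this ratio the LARP1 IP overlapped the IgG IP but not Input (exact permutation p = 0.333). PFN1 over CFL1 and S100A6 over S100A10 overlapped between the LARP1 IP and either control. The 6 ratios were chosen after the values were seen.

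Together the 8 genes took, of counts outside the 2 most abundant genes, 0.412% and 0.344% in LARP1 IP libraries, 0.220% and 0.169% in IgG IP libraries, and 0.307% and 0.209% in Input, with 95% Wilson intervals at most 0.025 percentage points wide that cover counting error only. The LARP1 IP libraries were the highest of the 6, at 1.94 times the mean of the IgG IP and 1.47 times that of Input. TMSB10 made up 34.5% to 56.9% of the sum. Without TMSB10 the means were 0.188% ± 0.0148 in LARP1 IP libraries, 0.127% ± 0.0241 in IgG IP libraries and 0.144% ± 0.0133 in Input (SD, n = 2 each).

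The fold changes moved with the scaling of the libraries. With TMM their order over IgG was TMSB10, PPIA, S100A6, S100A10, TMSB4X, then S100A11 and PFN1, with CFL1 last. Most neighbours in this order differ by less than their standard errors, so it does not rank them. Without IgG IP replicate 2, PPIA (log2 fold change 2.80), S100A6 (2.80) and TMSB4X (2.69) were above TMSB10 (2.62). With total counts outside the 2 most abundant genes, which moved the median of all genes over IgG to -1.24, TMSB10, PPIA and S100A6 still passed over IgG (log2 fold changes 1.50, 1.33 and 1.13), S100A10 did not (0.69), and PFN1 and CFL1 turned to -0.021 and -0.64. With the same scaling 0 of the 8 passed over Input, where TMSB10 and PPIA stood at 0.74 and 0.67 against a median of all genes of -0.92, and TMSB4X and S100A11 turned to -0.17 and -0.67. With total counts of all genes, all 8 were higher than Input, as were 60.7% of all genes, at 2.03 to 3.44 against a median of all genes of 1.75. Relative to the median of all genes, TMSB10 lay 2.74 above it over IgG with TMM and between 2.58 and 2.83 above it over the 20 alternatives. Its distance above the median over Input ranged from 1.12 to 2.27. Over IgG that of TMSB4X ranged from 1.01 to 2.67 and that of CFL1 from 0.12 to 1.44.

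**Figure D4:**
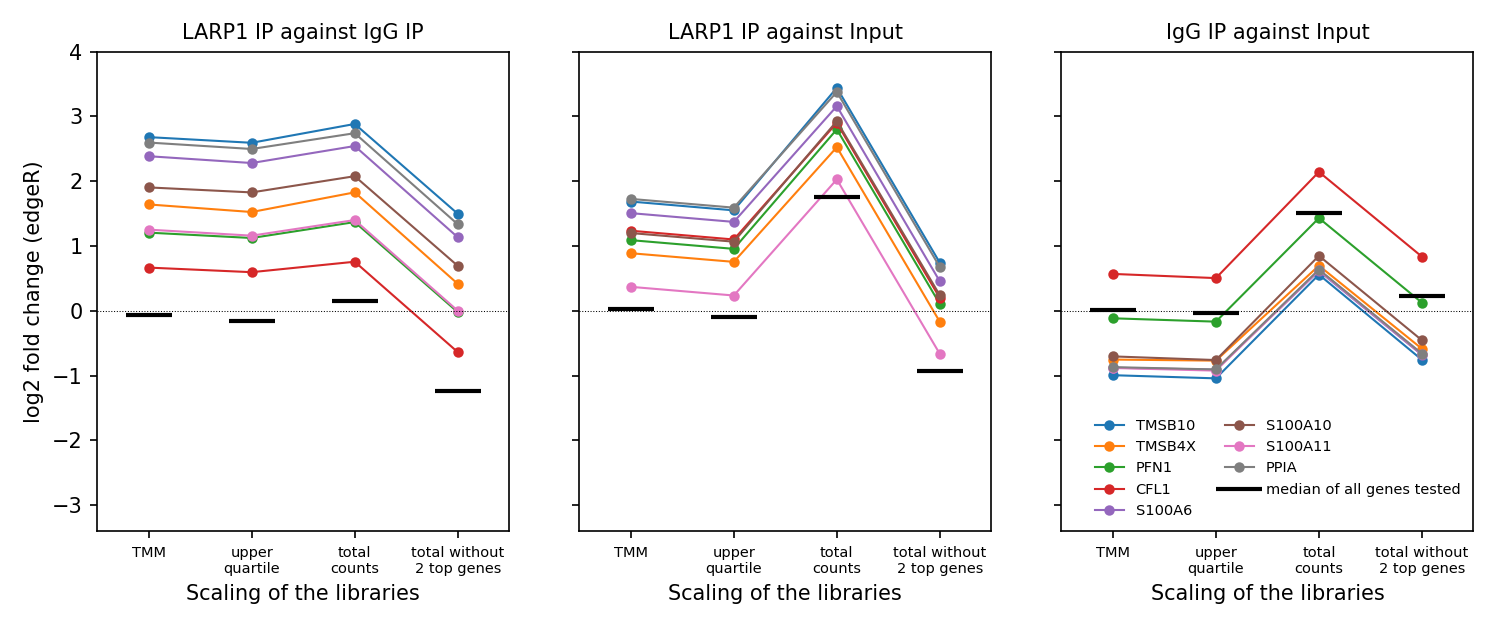
edgeR log2 fold change of the 8 genes (coloured lines) and the median of all genes tested (black bars) under 4 scalings of the libraries in the 3 comparisons. The genes and the median move together: over Input the median runs from -0.92 to 1.75, and over IgG the 8 genes stay above the median under every scaling drawn.

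By distance between profiles of log2(CPM + 1) centred on the mean of the 6 libraries, the genes most like the median profile of the 8 were ENSG00000138085.16 (distance 0.162) and ENSG00000178980.14 (0.180), of 3058 candidates with a mean of at least 10 CPM. ENSG00000178980.14 averaged 99.8 CPM in LARP1 IP libraries, 29.2 CPM in IgG IP libraries and 47.6 CPM in Input, and its log2 fold change was 1.77 over IgG and 1.07 over Input. The 8 genes themselves lay farther from their own median profile, from 0.719 for S100A10 to 1.57 for CFL1. The genes nearest to it were picked from 3058 by this same distance, so that contrast does not show how alike the 8 are.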

How the data were processed

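Each library has 1 deposited table of the authors' raw counts of reads by gene, neither normalised nor pooled. Per the submitters' processing notes, the build was GRCh38 and the tools were featureCounts, Subread 1.20.6, TopHat2 2.1.1, Bowtie2 and CASAVA 1.8. The sources used here do not give the annotation release, the strand setting or how reads with several hits were treated. Groups came from the sample titles. edgeR 4.0.16 in R 4.3.3 kept genes by filterByExpr (minimum count of 10), scaled by TMM and fitted all 6 libraries in 1 quasi-likelihood model with group as the only term. P-values were adjusted over all 10788 genes (Benjamini-Hochberg, 0.05). SE is the size of the log2 fold change over the square root of its F. DESeq2 1.42.0 and other settings were alternatives. Replicates were compared as counts: within a group they differed by 2.98 to 18.6 times sampling noise (chi-square per degree of freedom), so none was counted as a duplicate.

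The 8 genes and the lists were chosen with earlier results of these data known, all 8 are named, and the set of 3123 genes at or above the Input level of S100A11 was chosen after the values were seen. The files hold IDs without symbols, and no table used here pairs them, so the symbols of the 8 genes are those supplied with their IDs. Planned lists (ribosomal proteins, actin regulators, S100 and annexin genes, cyclophilins, glycolytic enzymes, pseudogenes), the ratio to ribosomal protein counts and the check of HCT116 markers were not run on the counts, and the likeness rule was applied without its symbol condition, to 2 genes. Sequences were matched by symbol to RefSeq (GRCh38.p14).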

Additional observations from a re-analysis of the deposited data

How the results depend on the processing

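DESeq2 without each library and the settings for the summed share were chosen after seeing the data. Percentages beside counts are the share of all genes called higher under the same setting. Genes to which DESeq2 gave no adjusted p count as not called, so its shares can lie below those among genes that had one. In the LARP1 IP comparisons without a library, DESeq2 gave one to all 8 genes. Of all genes it gave one to between 4097 of 11373 (over Input, without LARP1 IP replicate 2) and 10269 of 11621 (over IgG, without Input replicate 2). Over IgG, TMSB10, S100A6 and PPIA passed under all 20 alternatives, and the count of 4 genes (8.54%) became 6 with DESeq2 (8.26%) and with total counts (9.31%), 5 with no filter on low counts (4.33%), 3 with total counts outside the 2 most abundant genes (3.3%) and 4 to 6 without each library (5.08% to 8.64%; 4 to 5 with DESeq2, 3.61% to 6.4%). With the replicate number as a block (replicate block) it became 7 (14.1%), TMSB4X, PFN1 and S100A11 being added (adjusted p = 0.000659, 0.0126 and 0.0168). Over Input the count of 2 (4.63%) became 1 with upper-quartile factors (3.88%), 8 with total counts (60.7%), 0 with total counts outside the 2 most abundant genes (1.71%), 4 with no filter on low counts (3.39%), 3 with DESeq2 (4.96%) and with the 4 libraries compared (6.74%), and 0 to 3 without each library (0% to 6.39%; DESeq2 2.13% to 4.28%). With the replicate block it became 6 (10%), PFN1, CFL1, S100A6 and S100A10 being added (adjusted p = 0.0366, 0.0307, 0.0109 and 0.0223). In the IgG IP against Input it became 2 with total counts (53.8%). None of the 8 genes was called lower under any alternative run. The labels number the replicates alike but state no shared batch, and deviations of same-numbered libraries correlated at 0.519 (LARP1 IP and IgG IP), 0.134 (LARP1 IP and Input) and 0.271 (IgG IP and Input), with only 2 pairs.

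Values that changed sign were, with total counts in the IgG IP against Input, TMSB10 0.56, TMSB4X 0.70, PFN1 1.43, S100A6 0.62, S100A10 0.85, S100A11 0.63 and PPIA 0.64. With total counts outside the 2 most abundant genes they were PFN1 -0.021 and CFL1 -0.64 over IgG, TMSB4X -0.17 and S100A11 -0.67 over Input, and PFN1 0.12 in the IgG IP over Input. PFN1 there was 0.040 with no filter, 0.075 without IgG IP replicate 2 (DESeq2 0.072) and 0.11 without Input replicate 1 (DESeq2 0.11), in a range from -0.37 to 0.11 over the libraries left out, and CFL1 ranged from -0.22 without IgG IP replicate 1 (DESeq2 -0.27) to 1.05. S100A11 over Input ranged from -0.062 without LARP1 IP replicate 2 (DESeq2 -0.059) to 0.74. As a share of all counts the 8 genes took 0.287% of the LARP1 IP, 0.0561% of the IgG IP and 0.0301% of Input, and without TMSB10 0.188%, 0.127% and 0.144% of counts outside the 2 most abundant genes. Apart from construction, the cause was not tested. Input had the fewest counts outside those 2 genes, with 28 and 29 for S100A11.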
